A study of Homo sapiens with 6 samples.

Results

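The genes of cholesterol and fatty acid synthesis were examined in BCP1, BCBL1 and BC1, established human lines of primary effusion lymphoma. This is a B cell lymphoma of the body cavities that carries Kaposi sarcoma-associated herpesvirus. Each line was cultured for 48 h with vehicle or with 3-AP (triapine) at 2.5 µM, an iron-chelating inhibitor of ribonucleotide reductase, and RNA was measured on Illumina bead arrays. There were 6 arrays, 3 with vehicle and 3 with 3-AP, so that every line had 1 array per agent. No p-value here measures the spread between repeat cultures of a line. For 3-AP against vehicle, p-values measure only the spread between the 3 pairs of arrays, with variances shrunk over all features. All cultures were kept in medium with 20% serum and used at fewer than 20 passages. The 31 genes were chosen as a list of sterol and lipid synthesis genes driven by the SREBP transcription factors. The choice was made with earlier results of these data known. A probe carried the name of 30 of the 31, the exception being FDFT1. A probe above background on at least 3 arrays was available for 28, among 14627 features tested in all, and 24 of the 28 were above background on all 6 arrays. Of the other genes, the fatty acid desaturase genes FADS1 and FADS2 were above background on 0 and 2 arrays and entered no test.

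Cholesterol is built from acetyl-CoA by way of mevalonate, isoprenoid diphosphates, squalene and lanosterol, and fatty acids from the same acetyl-CoA by way of malonyl-CoA. The transcription factors SREBP-1 and SREBP-2, the products of SREBF1 and SREBF2, switch on the enzymes of both routes. When membranes hold enough sterol, INSIG proteins keep SCAP and its bound SREBP in the endoplasmic reticulum. When sterol is scarce, SCAP carries SREBP to the Golgi, where it is cut and released to the nucleus.

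Levels are given as log2 signal after background subtraction and quantile normalization over the 6 arrays, and a response is the log2 level with 3-AP minus that with vehicle. A level was compared only for the same probe, never between genes. On the 4 arrays with detection p-values of their own, those of BCBL1 and BC1, between 37.0% and 39.2% of 47323 probes were above background (detection p under 0.05). The arrays of BCP1 and BCBL1 resembled each other closely, with a correlation of deposited log2 signals over all probes of 0.995 between their vehicle arrays, against 0.962 and 0.960 for BC1 with each of them. At the same agent these lines were closer to each other (0.995 and 0.993) than each was to its own other array (0.990 and 0.989). Whether samples of BCP1 and BCBL1 are related or were exchanged was not tested. All 6 plasma cell markers of a fixed list, among them IRF4, PRDM1 and SDC1, were above background on 6 arrays. Of 6 T and NK cell markers, CD2 was above background on 4 arrays and the others on 0. Of the mature B cell markers with a probe, CD79A and CD79B were each above it on 4 arrays and MS4A1, PAX5 and CD22 on at most 1. Of 6 myeloid markers, LYZ and CD68 were above background on 6 arrays, FCGR3A on 3, CD14 and S100A8 on 2 and CSF1R on 1, and their part in the results was not tested. BC1 had 1 culture per agent, so a response of that line and a fault of its 3-AP array cannot be told apart.

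The first question was how lipid synthesis genes responded in each line. The response differed in sign between lines. In BC1, 25 of 28 genes were lower with 3-AP than with vehicle, against 49.6% of all features. In BCP1 and BCBL1 most were higher, 23 of 28 and 20 of 28, against 49.4% and 48.4% of all features. The combination of higher in BCP1, higher in BCBL1 and lower in BC1 was shown by 16 of 28 genes and by 10.2% of all features. Among the 24 genes above background on every array it was shown by 13. In the deposited values, which carry no background subtraction of this work, 16 genes and 10.2% of all features showed it too. These values come from the same arrays, so that count is no separate test of the pattern.

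By role, the values were as follows in BCP1, BCBL1 and BC1. Among 17 sterol synthesis enzymes the median responses were 0.20, 0.25 and -0.62. Among 6 genes of sterol sensing and handling it was 0.27, 0.18 and -0.42, and among 5 genes of the fatty acid arm 0.12, -0.05 and -0.79. Over all features the medians were -0.01, -0.01 and 0.00. BCP1 and BCBL1 differed in the fatty acid arm, where 4 of 5 genes were positive in BCP1 and 2 of 5 in BCBL1, a difference of 1 array against 1 that was not tested.

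**Figure D1:**
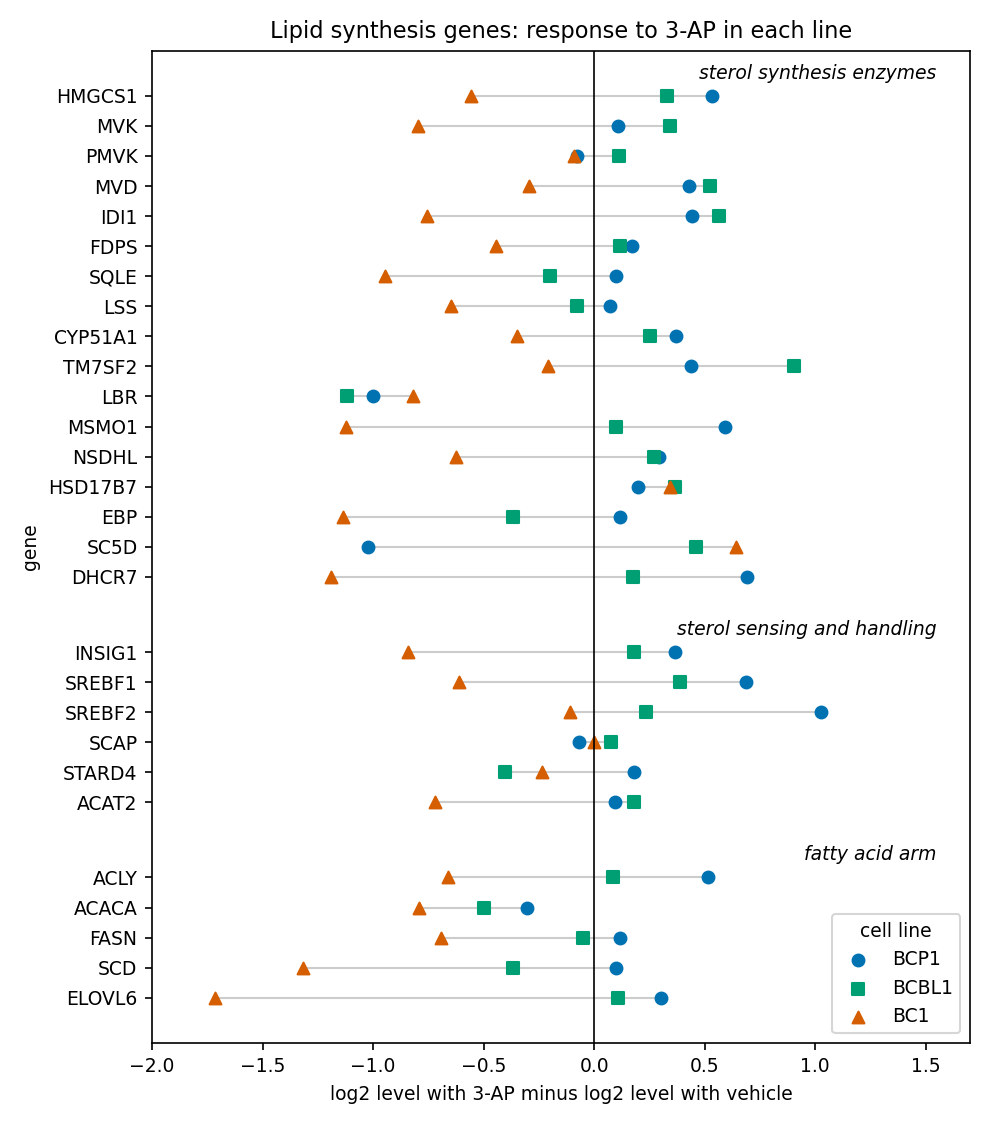
Response of each lipid synthesis gene in each line, as the log2 level with 3-AP minus that with vehicle (x axis), with 1 point per line from 1 array against 1 and genes grouped by role (y axis). The BC1 points lie left of 0 for 25 of 28 genes, while LBR and ACACA lie left of 0 in all 3 lines and HSD17B7 right of 0 in all 3.

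**Figure D2:**
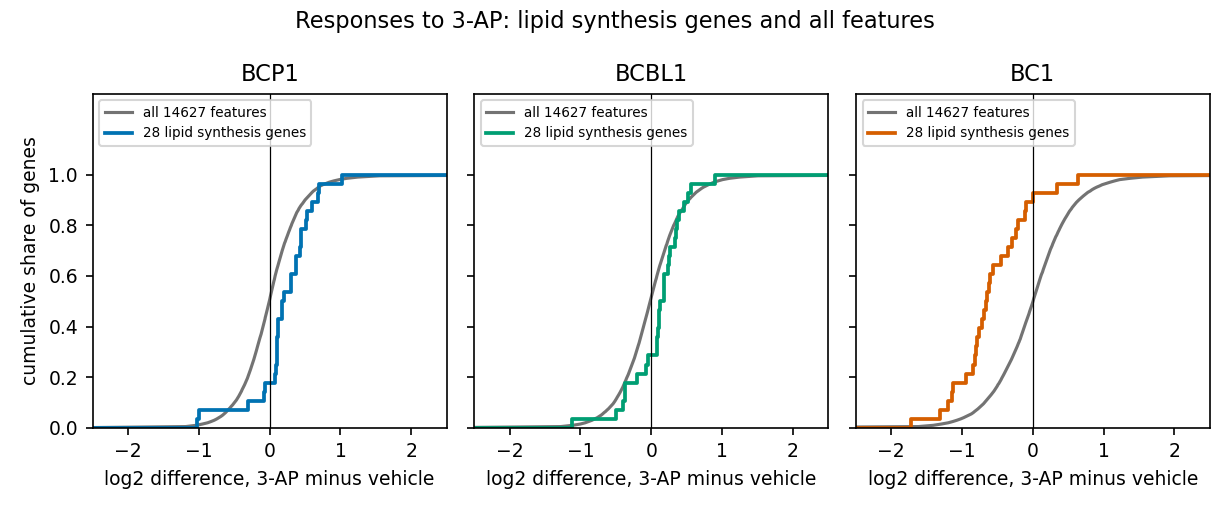
Cumulative share of genes (y axis) by log2 response to 3-AP (x axis) for 28 lipid synthesis genes, in colour, and all 14627 features, in grey, with 1 panel per line. The coloured curve lies mostly to the right of the grey one in BCP1 and BCBL1 (medians 0.19 and 0.15) and to its left in BC1 (median -0.65).

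The enzymes that make isoprenoid units from acetyl-CoA showed the pattern in most steps. HMGCS1, the HMG-CoA synthase that feeds the mevalonate route, had log2 levels of 9.50, 9.98 and 10.65 in BCP1, BCBL1 and BC1 with vehicle and of 10.03, 10.31 and 10.10 with 3-AP. BC1 was the highest of the lines with vehicle and lay between the others with 3-AP, and the responses were 0.53, 0.33 and -0.56. The isomerase gene IDI1, which makes dimethylallyl diphosphate, had 7.94, 8.50 and 9.31 with vehicle and 8.38, 9.07 and 8.55 with 3-AP. Its responses of 0.44, 0.56 and -0.76 amount to 1.36-fold and 1.48-fold higher in BCP1 and BCBL1 and 1.69-fold lower in BC1. For FDPS, the farnesyl diphosphate synthase gene, the responses were smaller, 0.17, 0.12 and -0.44. The mevalonate kinase gene MVK had 0.11, 0.34 and -0.80 and the decarboxylase gene MVD 0.43, 0.52 and -0.29, but both lay near the background. MVK was above it on 3 arrays, the BC1 arrays and the BCBL1 array with 3-AP, and MVD on 5. PMVK, the phosphomevalonate kinase gene, was an exception, with -0.08, 0.11 and -0.09. Its mean response was -0.02, with a 95% interval from -0.33 to 0.29.

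Among the enzymes from squalene to cholesterol the BC1 responses ran from -1.19 for DHCR7 to 0.64 for SC5D. The squalene epoxidase gene SQLE, a rate-controlling step, had levels of 11.54, 11.93 and 12.52 in BCP1, BCBL1 and BC1 with vehicle and 11.64, 11.73 and 11.57 with 3-AP. It was 1.93-fold lower with 3-AP in BC1, and the 3 lines, spread over 0.98 log2 units with vehicle, lay within 0.16 with 3-AP. Its second kept probe gave -0.15, -0.38 and -1.30. The sterol methyl oxidase gene MSMO1 had 10.38, 10.98 and 11.82 with vehicle and 10.98, 11.07 and 10.70 with 3-AP, so BC1 was the highest line with vehicle and the lowest with 3-AP. That is 2.18-fold lower in BC1 and 1.51-fold higher in BCP1. The 3 kept probes of MSMO1, all above background on 6 arrays, disagreed. The second gave 0.22, -0.30 and -1.36, and the third 0.46, 0.07 and 0.51, so that BC1 was higher with 3-AP by that probe. DHCR7, the reductase of the last step in one branch of the route, had responses of 0.69, 0.18 and -1.19, with levels of 8.01, 9.01 and 8.78 with vehicle and 8.70, 9.19 and 7.59 with 3-AP. It was the lowest BC1 response of the sterol enzymes after background subtraction, 2.28-fold, and a second kept probe gave 0.59, 0.45 and -1.01. In the deposited values the BC1 response of DHCR7 was -0.87, less low than -1.08 for MSMO1, -0.95 for SQLE and -0.92 for EBP. EBP, the sterol isomerase gene, was 2.20-fold lower in BC1 and had responses of 0.12 and -0.37 in BCP1 and BCBL1. The lanosterol synthase gene LSS had 0.07, -0.08 and -0.65. CYP51A1, the lanosterol demethylase gene, had 0.37, 0.25 and -0.35, the dehydrogenase gene NSDHL 0.30, 0.27 and -0.62, and the sterol reductase gene TM7SF2 0.44, 0.91 and -0.21. TM7SF2 had the highest mean response of the sterol enzymes, 0.38 ± 0.23 (SE, n = 3 pairs, limma adjusted p = 0.368), with levels of 7.73, 7.64 and 8.70 with vehicle and 8.17, 8.55 and 8.49 with 3-AP. SC5D, the sterol desaturase gene, was above background only on the BCP1 vehicle array and both BC1 arrays, where its BC1 levels were 7.59 with vehicle and 8.23 with 3-AP.

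**Figure D3:**
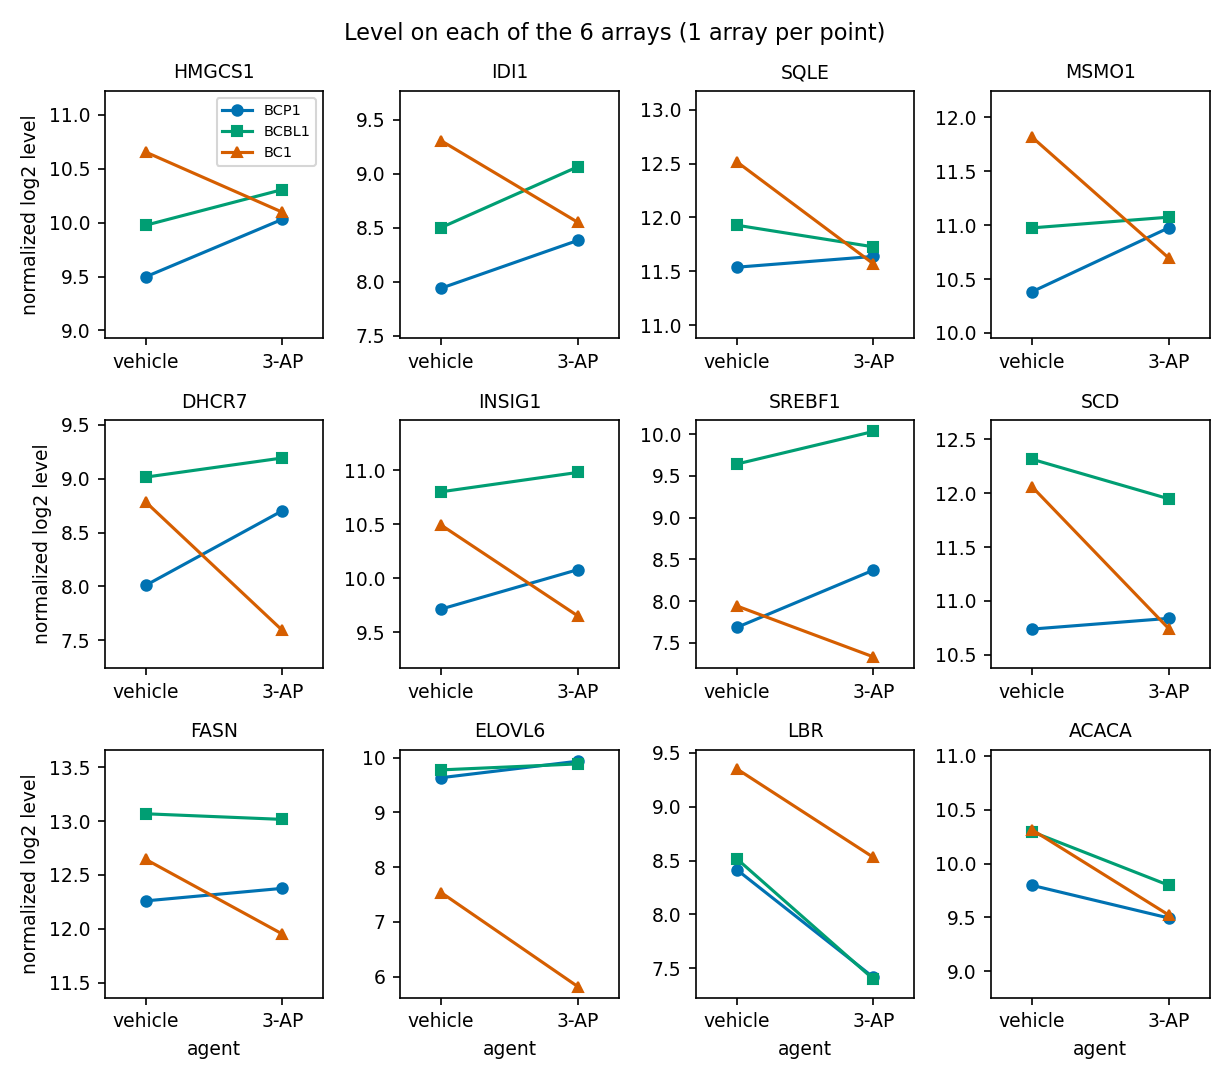
Normalized log2 level (y axis) of 12 lipid synthesis genes on each of the 6 arrays, with vehicle and with 3-AP (x axis), joined within a line, and with y axes that differ between panels. For HMGCS1, IDI1, MSMO1, DHCR7, INSIG1 and SREBF1 the BC1 line slopes down while the BCP1 and BCBL1 lines slope up, and for LBR and ACACA all 3 slope down.

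Only 3 genes had 1 sign in all lines, against 49.4% of all features. LBR, the lamin B receptor gene, encodes a protein of the inner nuclear membrane that is also a sterol reductase. It had levels of 8.42, 8.52 and 9.35 in BCP1, BCBL1 and BC1 with vehicle and 7.42, 7.40 and 8.53 with 3-AP. Within every line the 3-AP array was lower, and the responses were -1.0, -1.12 and -0.82. TM7SF2, which encodes the other enzyme with this activity, did not share that course. The mean response of LBR was -0.98 ± 0.13 (SE, n = 3 pairs), 1.97-fold lower, and it missed the threshold (limma adjusted p = 0.0613). It fell by 0.68 ± 0.08 on the log2 scale in the deposited values, 1.60-fold (limma adjusted p = 0.00835). This rests on 1 of 3 LBR probes. The second kept probe had responses of 0.21, -0.68 and -0.03, and the third was above background on 2 arrays.

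ACACA, the acetyl-CoA carboxylase gene that commits acetyl-CoA to fatty acids, had levels of 9.80, 10.29 and 10.31 with vehicle and 9.49, 9.80 and 9.52 with 3-AP. Its responses were -0.30, -0.50 and -0.79, and its second kept probe gave -0.38, -0.39 and -0.64. The mean was -0.53 ± 0.15 (SE, n = 3 pairs, limma adjusted p = 0.133). It fell by 0.47 ± 0.10 in the deposited values (limma adjusted p = 0.0383). HSD17B7, a keto-sterol reductase gene, was the gene positive in all lines, with 0.20, 0.37 and 0.34 and a mean of 0.30 ± 0.12 (limma adjusted p = 0.210).

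The sensing genes showed the pattern as well, except SCAP and STARD4. INSIG1, a retention factor of SCAP and itself a target of SREBP, had levels of 9.71, 10.80 and 10.49 in BCP1, BCBL1 and BC1 with vehicle and 10.08, 10.98 and 9.65 with 3-AP. The responses were 0.37, 0.18 and -0.84, and its second kept probe, above background on 4 arrays, gave 0.22, 0.52 and -1.23. SREBF1 had 7.68, 9.64 and 7.94 with vehicle and 8.37, 10.03 and 7.33 with 3-AP, which are responses of 0.69, 0.39 and -0.61. A second kept probe of SREBF1, above background on 5 arrays, gave 0.56, 0.18 and -1.05. SREBF2 lay near the background, with deposited intensities of 155, 165 and 169 with vehicle and 195, 172 and 165 with 3-AP. Its response of 1.03 in BCP1 was 0.34 in the deposited values. SCAP was nearly level on all arrays, from 10.54 to 10.68, with a mean response of 0.00 and a 95% interval from -0.30 to 0.30. STARD4, which encodes a sterol transfer protein, had 0.18, -0.40 and -0.24. ACAT2, the cytosolic thiolase gene that starts the route, had 0.09, 0.18 and -0.72. Its second kept probe, above background on 5 arrays, gave 1.26, 0.16 and -0.11.

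Promoter sequences from RefSeq (GRCh38.p14) were available for 27 of the 31 genes, in 36 windows since some genes have several starts. Each window was searched over the 250 bases before the start, on both strands. The sterol regulatory element TCACNCCAC was found in 1 of 36 windows (2.78%), that of SREBF2, and in 0.883% of 35116 promoter windows of all genes. With 1 more open base (TCACNCNAC, which includes the former) it was in 4 windows, of SREBF2, FDPS, HSD17B7 and FADS2, and in 2.02% of all. The E-box TCACGTGA was in 1 window, that of INSIG1, and in 0.854% of all. The CCAAT box was in 63.9% of the windows and in 32% of all, and the GC box GGGCGG in 86.1% and 42.6%. Of the 16 genes with the pattern of the lines 15 had a window, and 12 of these genes held CCAAT. Counted in the same way by gene, 19 of all 27 genes with a window held it. A share by gene over all genes was not computed, and a link to the pattern was not tested. The windows of SREBF2 (chr22:41832855-41833104), FDPS (chr1:155308616-155308865) and INSIG1 (chr7:155297628-155297877), all on the plus strand, are shown because these 3 genes had the pattern and held a sterol element or the E-box. Capitals mark TCACNCNAC, TCACGTGA and CCAAT, or the complement of one of these.
SREBF2: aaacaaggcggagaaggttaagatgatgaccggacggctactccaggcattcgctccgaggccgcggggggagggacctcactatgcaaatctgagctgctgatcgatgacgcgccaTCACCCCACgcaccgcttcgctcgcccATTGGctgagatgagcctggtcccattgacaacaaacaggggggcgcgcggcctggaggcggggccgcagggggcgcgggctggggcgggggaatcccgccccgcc
FDPS: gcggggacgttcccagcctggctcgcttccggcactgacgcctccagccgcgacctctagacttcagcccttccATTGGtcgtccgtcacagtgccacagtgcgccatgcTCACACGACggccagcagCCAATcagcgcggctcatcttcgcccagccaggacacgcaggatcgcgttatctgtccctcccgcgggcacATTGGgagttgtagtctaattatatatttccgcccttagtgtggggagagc
INSIG1: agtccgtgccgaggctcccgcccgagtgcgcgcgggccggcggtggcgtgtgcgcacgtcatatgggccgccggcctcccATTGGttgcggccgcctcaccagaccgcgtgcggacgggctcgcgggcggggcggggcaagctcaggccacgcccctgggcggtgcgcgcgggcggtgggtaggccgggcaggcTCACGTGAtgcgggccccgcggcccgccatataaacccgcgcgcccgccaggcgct
The sterol element of SREBF2 starts 133 bases before the transcript start, the looser match of FDPS 140 bases and the E-box of INSIG1 56 bases. A match describes the letters and does not show that a factor binds there.

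In the fatty acid arm the largest BC1 responses were those of the elongase and desaturase genes. ELOVL6, which extends palmitate, had levels of 9.63, 9.78 and 7.53 in BCP1, BCBL1 and BC1 with vehicle and 9.93, 9.88 and 5.82 with 3-AP. BC1 was far below the other lines with either agent, and its response of -1.72 compares with 0.30 and 0.11. In the deposited values, where the background is not subtracted, ELOVL6 was 0.567-fold of vehicle in BC1, against 0.304-fold after subtraction. A second kept probe, above background on 5 arrays, gave -0.08, -0.06 and -1.35. For these dim probes of INSIG1, SREBF1 and ELOVL6 the differences are partly against signal at background and carry little weight. SCD, the stearoyl-CoA desaturase gene, had 10.74, 12.31 and 12.06 with vehicle and 10.84, 11.95 and 10.74 with 3-AP. It was 2.49-fold lower in BC1 and 1.29-fold lower in BCBL1, and BC1 lay near BCBL1 with vehicle and near BCP1 with 3-AP. The fatty acid synthase gene FASN had responses of 0.12, -0.05 and -0.69. ACLY, the citrate lyase gene that supplies cytosolic acetyl-CoA, had 0.51, 0.08 and -0.66, and its second kept probe 0.36, 0.07 and -0.49.

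The second question was whether the response of BC1 differed from the mean response of BCP1 and BCBL1. The difference was negative for most genes, and in log2 units it was -1.92 ± 0.21 (SE) for ELOVL6 (-1.0 ± 0.16 in the deposited values), -1.63 ± 0.30 for DHCR7, -1.47 ± 0.29 for MSMO1, -1.26 ± 0.20 for IDI1, -1.18 ± 0.28 for SCD, -1.15 ± 0.23 for SREBF1 and -1.12 ± 0.21 for INSIG1. The median was -0.87 over the 28 genes and 0.00 over all features. None of the 28 passed the limma test after adjustment over all features, and 0% of all 14627 passed, with the smallest adjusted p among the 28 at 0.231. With 1 residual degree of freedom this test, as run here after background subtraction, had little power, and its count of 0 says little. At an unadjusted p under 0.05, 20 of 28 were counted, all lower in BC1, against 9.24% of all features that were lower in BC1 at that level.

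The count at the adjusted threshold depended on the background step, the variance model and the detection filter. With background subtraction and a variance trend 18 of 28 passed, against 2235 of 14627 features. With a detection p under 0.01 on all 6 arrays 13 of 24 passed, against 758 of 10273 features. In the deposited values 19 of 28 passed, 18 lower in BC1 and 1, the desaturase gene SC5D, higher, against 15.4% of all features. The 18 were 11 sterol enzymes, HMGCS1, IDI1, FDPS, SQLE, LSS, CYP51A1, TM7SF2, MSMO1, NSDHL, EBP and DHCR7, with INSIG1, SREBF1 and ACAT2 and with ACLY, FASN, SCD and ELOVL6. Examples are MSMO1, which fell by 1.40 ± 0.16 on the log2 scale relative to the other lines, DHCR7 by 1.19 ± 0.16 and SCD by 1.12 ± 0.16. The MSMO1 value is that of its brightest probe, and its kept probes disagreed. After background subtraction the BC1 response was -1.36 by the second and 0.51 by the third. BCP1 and BCBL1 alone supplied the spread, with 1 residual degree of freedom, and the deposited values gave nearly 1 common standard error, 0.16, to all 28. The comparison of BC1 with the other lines was chosen with earlier results of these data known.

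The third question was whether lipid synthesis genes differed between 3-AP and vehicle over the 3 lines. By limma with cell line as a block, 0 of 28 passed the adjusted threshold, against 0.342% of all features. At an unadjusted p under 0.05, 2 were counted, LBR and ACACA, both lower, against 24.0% of all features. In the deposited values these 2 passed, both lower, against 7.86% of all features in either direction and 3.77% lower. The median response was -0.02 over sterol enzymes, -0.05 over sensing and handling genes and -0.44 over the fatty acid arm, against -0.01 over all features. The fatty acid median was -0.20 in the deposited values. Without BC1 (replicate 3) these medians were 0.28, 0.21 and 0.03. The mean over lines averages responses of opposite sign for most genes, and for 12 of the 28 genes, among them MSMO1, DHCR7 and INSIG1, its sign turned without BC1.

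The fourth question was how the levels compared between lines. With vehicle, BC1 was the highest of the 3 lines for 16 of 17 sterol enzymes, against 45.4% of all features. With 3-AP it was the highest for 8 of 17, against 44.0%. The range over the 3 lines was narrower with 3-AP than with vehicle for 14 of 17 sterol enzymes, against 39.9% of all features. Its median went from 1.06 to 0.47 log2 units, while that of all features went from 0.49 to 0.60. In the fatty acid arm the range was narrower for 2 of 5 genes, and its median went from 0.81 to 1.20 log2 units. BC1 was the highest line for 1 of these 5 genes with vehicle and for 0 with 3-AP. Among the 6 genes of sterol sensing and handling it was the highest for 3 with vehicle and 1 with 3-AP. The range was narrower with 3-AP for 2 of those 6. None of these counts was tested, and the level and the response of a line share its arrays.

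**Figure D4:**
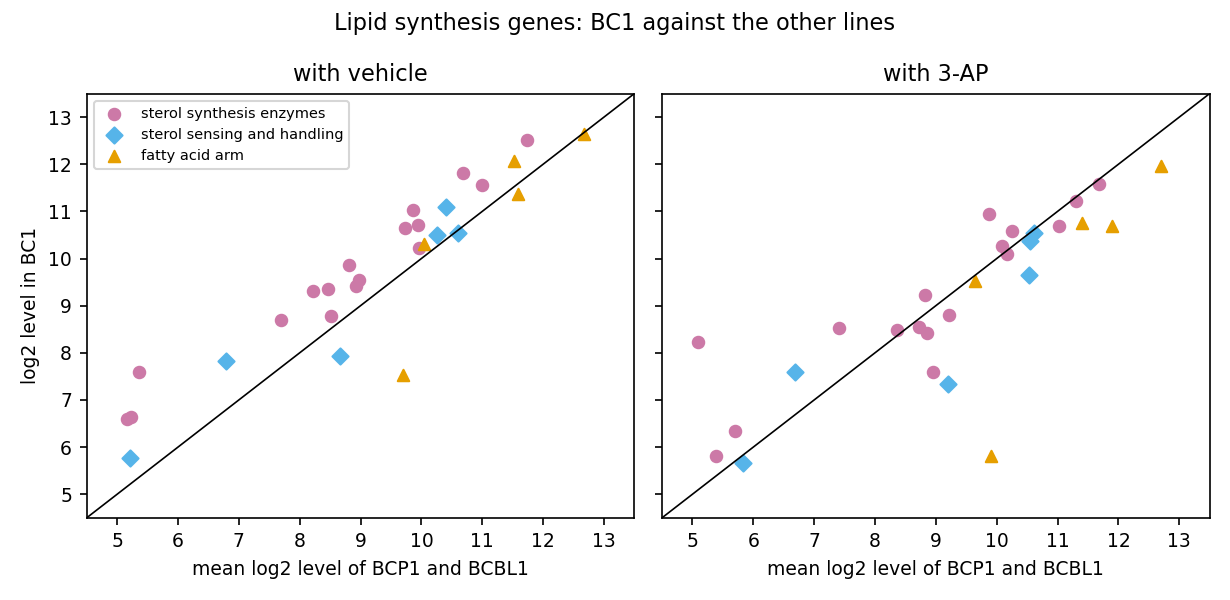
Log2 level in BC1 (y axis) against the mean log2 level of BCP1 and BCBL1 (x axis) for 28 lipid synthesis genes, with vehicle (left) and with 3-AP (right). The diagonal marks equal levels, and 17 of 17 sterol synthesis enzymes lie above it with vehicle and 9 of 17 with 3-AP.

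Over both agents, 8 of 28 genes differed between lines in limma's F test at an adjusted p under 0.05, against 20.3% of all features. Higher in BC1 was PMVK, with mean levels of 9.88, 9.85 and 10.99 in BCP1, BCBL1 and BC1 (adjusted p = 0.0108). So were LBR with 7.92, 7.96 and 8.94 (adjusted p = 0.0167) and STARD4 with 6.69, 6.79 and 7.71 (adjusted p = 0.0339). MVD, near the background, and LSS were highest in BC1 but differed pairwise only from BCP1 (limma adjusted p = 0.0254 and 0.0229). Against BCBL1 the limma adjusted p was 0.0595 and 0.318. For LSS, BCP1 was the lowest line, with levels of 8.42, 9.22 and 9.55. SC5D was not above background on either BCBL1 array and was at least 6.21-fold higher in BC1 than in BCBL1 (limma adjusted p = 0.00933), and 2.32-fold in the deposited values. Lower in BC1 was ELOVL6, 8.62-fold below BCP1 and 8.90-fold below BCBL1 (F test adjusted p = 0.0188), and 4.56-fold and 4.41-fold in the deposited values. SREBF1 was highest in BCBL1, 4.59-fold above BC1 (limma adjusted p = 0.010), and 3.19-fold in the deposited values. Taken pairwise, 7 of 28 genes differed between BC1 and BCP1 and 6 of 28 between BC1 and BCBL1, against 22.4% and 24.7% of all features. Of the 28 genes 0 differed between BCP1 and BCBL1, as did 0% of all features. FASN and SCD also had their highest level in BCBL1, with means of 13.04 and 12.13, and did not pass the F test. Both passed it in the deposited values, where MVD did not.

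Among other genes of lipid metabolism the pattern of the lines was shown by 1 of 8 other sterol and isoprenoid enzymes, 0 of 5 genes of SREBP processing, 0 of 9 genes of sterol uptake, export and storage, 1 of 13 other fatty acid enzymes and 1 of 4 genes of citrate and NADPH supply, against 10.2% of all features. Whether these shares differ from that of the 28 genes was not tested. By limma none of these 39 genes passed over the 3 lines. The smallest unadjusted p-values belonged to the isocitrate dehydrogenase gene IDH1, with a response of -0.86 ± 0.19 (SE, limma adjusted p = 0.105), the ubiquinone synthesis gene COQ2 with -0.78 ± 0.18 (adjusted p = 0.107), and PDSS2, which encodes a subunit of an enzyme that makes the ubiquinone side chain, with -0.50 ± 0.12 (adjusted p = 0.112). All 3 were lower with 3-AP in every line. In the deposited values 5 of the 39 passed, against 7.86% of all features, lower for these 3 and higher for NPC2, a lysosomal cholesterol carrier gene, and MBTPS1, the first protease that cuts SREBP. NPC2 and MBTPS1 are named after their values were seen.

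Higher with 3-AP in all 3 lines, NPC2 had levels of 11.81, 11.85 and 11.57 in BCP1, BCBL1 and BC1 with vehicle and 12.28, 12.37 and 12.98 with 3-AP. Among the 9 genes of sterol uptake, export and storage, 2 were lower with 3-AP in BC1, against 49.6% of all features. These were MYLIP at -0.53 and SOAT1 at -0.48, while ABCG1 was at 0.91. The cholesterol exporter gene ABCA1, which was singled out after its values were seen, had 6.19, 8.05 and 6.25 with vehicle and 6.29, 8.27 and 8.40 with 3-AP. Its response of 2.15 in BC1 compares with 0.10 and 0.23 in BCP1 and BCBL1, a difference of 1.99 ± 0.20 (SE) that did not pass after background subtraction (limma adjusted p = 0.231). In the deposited values the ABCA1 difference was 1.18 ± 0.16 and passed in limma. Its SE came from BCP1 and BCBL1 alone, so the spread of the BC1 response was not measured.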

How the data were processed

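RNA of 6 samples was labelled and hybridised to Illumina bead arrays. The deposited processed table holds 1 linear signal intensity per probe and array. How the scanner signals were corrected and normalized is not given in the sources used here, and per the values both arrays of a line share their lower quartile and median. The deposited non-normalized table holds intensities with a detection p-value for each probe, per the file headers. Its 2 BCP1 columns equal the processed BCBL1 values for 100% of probes within 0.051 and were not used, so BCP1 detection p-values were estimated by rank from the other 4 arrays.

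The processed intensities were background-corrected with limma's nec (offset 16), quantile normalized and log2 transformed (R 4.3.3, limma 3.58.1). Of 47323 probes, 13 with a 0 were dropped and 17987 with a detection p under 0.05 on at least 3 arrays were kept. The brightest kept probe stood for a gene, giving 14627 features, and unnamed probes stood alone. The probe annotation gave 1 symbol for 30113 probes, several for 8 and none for 17202.

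Models were fitted with lmFit and eBayes, with a threshold of 0.05 on p-values adjusted across all features (Benjamini-Hochberg). Cell line was a block for 3-AP against vehicle and for BC1 against the other lines. For levels between lines, cell line was the tested term and agent a further term. The pairs are arrays of the same cell line, and deviations of same-line arrays from their group means correlated at 0.71, 0.76 and 0.86, against 0.59 and 0.58 between BCP1 and BCBL1. The scripts were tested on simulated data. All genes of the list are named. Those past the threshold, and per role those with the largest changes, are described in full, and of other pathway genes the 3 with the smallest p are named. Any further pathway gene named was picked after its values were seen. The genes and lists were chosen with earlier results of these data known. Background steps, filters, probe rules, variance models, blocks and left-out lines were tried as alternatives.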

Additional observations from a re-analysis of the deposited data

How the results depend on the processing

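Over the 3 lines, 0 of 28 genes passed the test of 3-AP against vehicle. The count was 2 in the deposited values, with quantile normalization without background subtraction and with a variance trend, and 1 with normexp at an offset of 50 (both method and offset changed), with nec at an offset of 50, or with a detection p under 0.01 on all 6 arrays. The corresponding counts for BC1 against the other lines were 19, 19 and 18, then 13, 4 and 13, against 0 as reported, and 0 with no filter, with the mean of kept probes and with robust eBayes. Among all features the calls for BC1 numbered 2252, 1839 and 2235, then 644, 131 and 758, and 0 in the other settings named. The features tested were 14627, but 10273 with a detection p under 0.01 on all 6 arrays and 37245 with no filter. No value without 1 line can be had for BC1 against the others, since no residual degree of freedom is left. Among all features the calls for 3-AP numbered 50, with 1150, 1197, 1252, 833, 650 and 654 in the 6 settings in that order, 10 with no filter, 19 with robust eBayes and 447 with line as a random block. The cause was not tested. For levels between lines 8 genes passed, 5 with no filter, and 0 to 8 when 1 line was left out, with 0 without BC1 (chosen after seeing the data). Among all features 2962 of 14627 passed, 2476 of 37245 with no filter and 0 of 14627 without BC1.

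With no replicate block, which ignores the pairing by line, 0 of 28 genes passed. The 3 medians by role cannot change in that setting, since every line has 1 array per agent. The fatty acid median of -0.44 was -0.20 in the deposited values and without background subtraction, -0.23 with normexp and -0.29 with nec at an offset of 50. Responses over lines turned sign without 1 line for 17 genes, with ranges of -0.11 to 0.43 for HMGCS1, -0.34 to 0.23 for MVK, -0.085 to 0.017 for PMVK, -0.16 to 0.50 for IDI1, -0.16 to 0.14 for FDPS, -0.047 to 0.31 for CYP51A1, -0.51 to 0.35 for MSMO1 and -0.18 to 0.28 for NSDHL. The other ranges were -0.28 to 0.55 for SC5D, -0.51 to 0.43 for DHCR7, -0.33 to 0.27 for INSIG1, -0.11 to 0.54 for SREBF1, -0.035 to 0.038 for SCAP, -0.31 to 0.14 for ACAT2, -0.29 to 0.30 for ACLY, -0.37 to 0.032 for FASN and -0.80 to 0.21 for ELOVL6. With the mean of kept probes the response of ACAT2 was 0.15 and the median of the sensing and handling genes 0.014, against -0.05 as reported. In the non-normalized signals of BCBL1 and BC1 the response over lines was -0.11 for HMGCS1, 0.014 for PMVK, -0.10 for IDI1, -0.048 for CYP51A1 and -0.12 for SREBF1. BCP1 is absent from these. The values as reported, with BCP1 left out, were close to them, at -0.11, 0.010, -0.096, -0.047 and -0.11 in that order. The medians of each role in each line kept their sign in the alternatives run. Signal near the background limits MVK, MVD, SC5D and SREBF2.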
